A study of Mus musculus with 4 samples.

Results

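The CDK inhibitors, D cyclins and Rb family were followed here in mouse hearts with a conditional deletion of Hdac3, a histone deacetylase that works in corepressor complexes. The set holds 10 genes: the inhibitors Cdkn1a, Cdkn1b, Cdkn2c and Cdkn2d, the D cyclins Ccnd1, Ccnd2 and Ccnd3, the pocket protein genes Rb1 and Rbl1, and Trp53. They were chosen by gene name: a probe belonged to the set when the array annotation named it for 1 of these genes, whatever its value. That gave 10 of the 30199 gene names of the array, read by 15 of its 39429 distinct probes, and 4 of the 10 genes had several probes.

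The study compared microdissected hearts of E9.5 embryos on two-colour expression arrays. Mutant pools were Nkx2.5Cre; Hdac3f/f, and control pools were Hdac3f/f littermates with no Cre named, so a Cre-only control was not part of the comparison and the floxed alleles were shared by both groups. Each pool held 3 hearts, all embryos were on a mixed CD1/B6/129 background, and 4 arrays each set 1 mutant pool against 1 control pool. Nkx2.5 is a transcription factor of cardiac progenitors and heart muscle, and cells of the heart outside that lineage may keep Hdac3.

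Passage from G1 into S phase is set by cyclin-dependent kinases. D cyclins bind and activate Cdk4 and Cdk6, which phosphorylate Rb1 and its relatives Rbl1 (p107) and Rbl2 (p130), and the phosphorylated pocket proteins release E2F transcription factors that switch on replication genes. Cdkn2c (p18) and Cdkn2d (p19) block Cdk4 and Cdk6, whereas Cdkn1a (p21) and Cdkn1b (p27) act mainly on Cdk2 complexes. The tumour suppressor p53, encoded by Trp53, is a direct activator of Cdkn1a, and the embryonic heart at this age grows by division of its muscle cells.

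Promoter sequences were available for 7 of the 10 genes, in 10 entries, from RefSeq on GRCm38.p6. The 250 bases before each transcription start were searched on both strands for a GC box (GGGCGG), for an E2F site (TTTCCCGC, TTTCGCGC, TTTGCCGC or TTTGGCGC) and for the p53 response element of 20 bases with at most 1 mismatch. Those motifs were present before 32.7%, 1.86% and 0.0761% of all 32851 starts, respectively; no E2F form contains the GC box, but matches to both may overlap at their edges. The starts of Cdkn1a, with a p53 response element, and of Rbl1, with an E2F site, are printed. Each gene had probes with different ratios, as had Cdkn1b, whose start is not printed. Which start serves which probe was not examined, and Rbl1 has a single entry. Capitals mark the matches, and each sequence is written 5′ to 3′ on the strand of its gene.
Cdkn1a, upstream start, chr17:29090729-29090978, plus strand: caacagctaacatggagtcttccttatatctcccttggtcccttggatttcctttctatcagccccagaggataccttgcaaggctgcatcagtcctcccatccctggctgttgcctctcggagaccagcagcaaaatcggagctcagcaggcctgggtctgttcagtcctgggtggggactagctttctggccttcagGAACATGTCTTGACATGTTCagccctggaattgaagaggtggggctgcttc
Cdkn1a, downstream start, chr17:29093519-29093768, plus strand: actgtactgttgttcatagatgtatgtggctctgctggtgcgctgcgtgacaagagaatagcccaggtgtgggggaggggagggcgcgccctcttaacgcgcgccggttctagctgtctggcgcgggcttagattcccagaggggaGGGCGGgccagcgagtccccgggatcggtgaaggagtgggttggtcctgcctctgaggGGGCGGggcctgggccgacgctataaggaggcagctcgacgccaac
Rbl1, chr2:157204535-157204784, minus strand: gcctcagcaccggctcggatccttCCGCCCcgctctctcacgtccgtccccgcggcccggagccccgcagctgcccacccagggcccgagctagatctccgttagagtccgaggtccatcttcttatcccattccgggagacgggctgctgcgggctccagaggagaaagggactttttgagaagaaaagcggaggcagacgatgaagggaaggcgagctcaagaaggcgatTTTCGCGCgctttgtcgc

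The upstream Cdkn1a start carried 1 p53 response element, whose last base lay 32 bases before the start, and no GC box. The downstream Cdkn1a start carried 2 GC boxes, the nearer 41 bases before the start, and no p53 element. Before the Rbl1 start there was 1 E2F site ending 11 bases away and 1 GC box ending 221 bases away. Of the other entries, Cdkn2d had 3 GC boxes, Cdkn1b had 1, the pair of Cdkn2c starts had 3 and 0, the pair of Ccnd3 starts had 2 and 1, and Trp53 had 0 matches to any of these motifs. These matches describe letters in a window and were not measured as binding sites in these hearts.

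Direction was the main uncertainty of the data. The labels place mutant RNA in Cy5 on all 4 arrays, but the deposited ratio columns, named mutant against wild type, ran as Cy5 over Cy3 on arrays 1 and 2 and as Cy3 over Cy5 on arrays 3 and 4. Against the scanner's own Cy5 over Cy3 ratio their slopes were 1.028, 1.012, -0.9896 and -1.013. The direction used below, positive when the mutant is higher, is the one the columns name and is therefore likely, not settled. Means with every array read as labelled, which turns arrays 3 and 4, are given for the members and list genes named below whose sign turns, and their signs and ranks depend on that choice.

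Over the whole array no difference passed the adjusted test. A probe was kept if, in at least 1 of the groups, all 4 arrays read it well above background, which left 25484. Of these limma called 0 at an adjusted p below 0.05 (0%), the lowest being 0.326, while 930 were higher and 1244 lower before adjustment. Array 3 stood apart, with a standard deviation of its ratios over the kept probes of 0.4351 against 0.2087 to 0.2546 on the others. The descriptions of replicates 2 to 4 mention embryonic stem cells, and all 10 heart muscle markers examined were above background in every channel, and so were 5 of 8 markers of pluripotent cells (Nanog, Zfp42, Utf1, Esrrb and Tdgf1), while Sox2 was above it in 1 channel and Pou5f1 and Dppa3 in 0. The titles of all 4 arrays name E9.5 hearts. Summed linear levels of the heart muscle markers were 1041000 to 1520000 in control pools and 1201000 to 1429000 in mutant pools. Those of the 5 pluripotency markers were 3396 to 4195 and 4046 to 6984. Why the descriptions mention stem cells was not examined, and a small share of such cells was not tested. Hdac3, the deleted gene, had log2 ratios of -0.22, -0.50, -0.52 and -1.15, a mean of -0.60 ± 0.39 (SD, n = 4, limma adjusted p = 0.5794), and read as labelled its mean was 0.24. The position of its probe relative to the deleted part of the gene was not examined.

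Of the 15 member probes, 14 passed the background filter and all 10 genes kept at least 1 probe. The probe that did not pass was Cdkn1a A_55_P1976204, designed to an Ensembl transcript and not well above background in any channel. Of the 14, 0 were called at an adjusted p below 0.05, and 2 had an unadjusted p below 0.05, 1 of them higher and 1 lower, where 3.65% and 4.88% of all kept probes were higher and lower at that level. Ratios had 1 sign on all 4 arrays for 3 member probes, Cdkn1a higher and Rb1 and Rbl1 lower, or 21.4%, close to the 19.8% of all kept probes. Mean ratios were above 0 for 3 probes and below 0 for 11, with a median of -0.10 against 0.00625 over all kept probes. Read as labelled, 5 means were above 0 and 9 below, and on all 4 arrays 1 probe was higher (Trp53) and 2 were lower (Cdkn2d and Rbl1 A_55_P2024773). These are pooled whole hearts, so fewer cells of a type and less RNA per cell cannot be told apart.

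**Figure D1:**
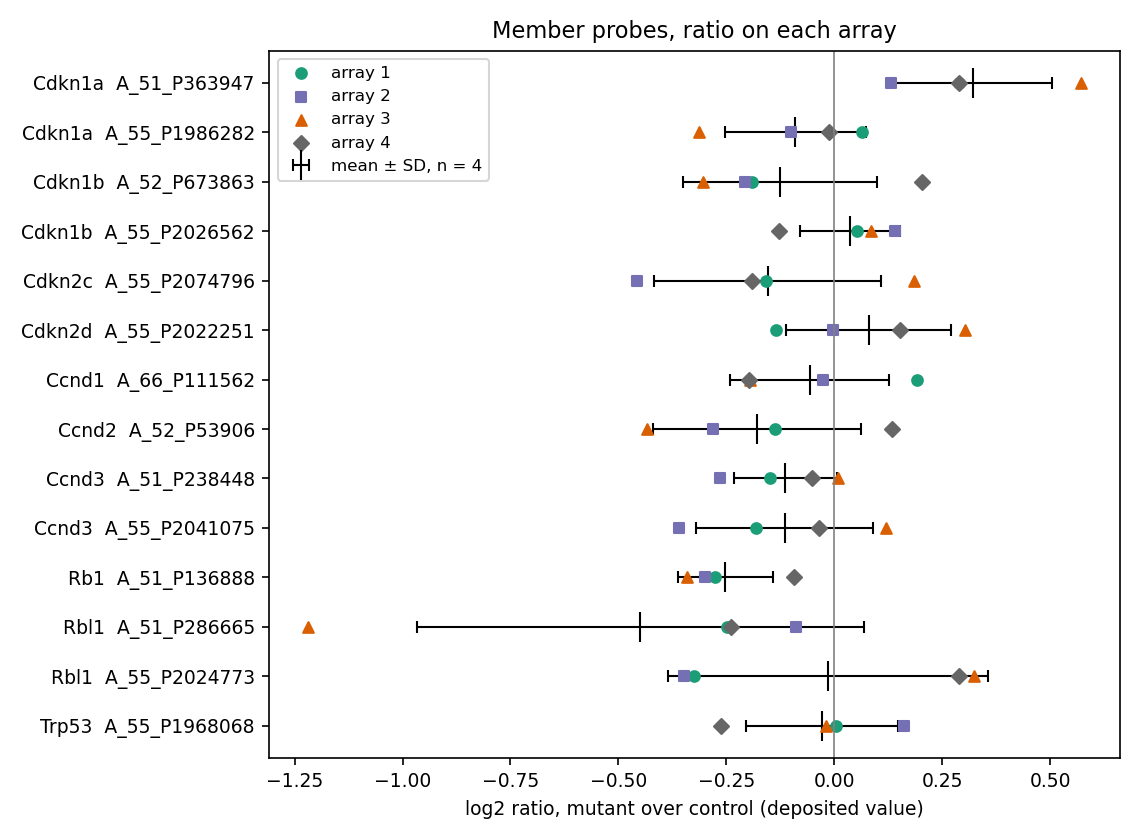
Deposited log2 ratio of mutant over control for the 14 member probes kept, 1 symbol per array, with the mean and SD over 4 arrays as a bar. The Cdkn1a probe A_51_P363947 lies right of 0 on every array, the Rb1 probe and the Rbl1 probe A_51_P286665 lie left of 0 on every array, and the other probes have arrays on both sides.

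Among the inhibitors, a Cdkn1a probe had the highest mean ratio of the set in the likely direction. Its probe A_51_P363947, printed 10 times on each array and placed by the array annotation at chr17:29237377-29237436 on mm9 (plus strand), had log2 ratios of 0.29, 0.13, 0.57 and 0.29. The mutant pool was the higher one on each array, least on array 2 and most on array 3. They averaged 0.32 ± 0.18 (SD, n = 4), 1.25-fold, with a 95% interval of 0.097 to 0.55, an unadjusted p of 0.01228 and a limma adjusted p of 0.5794, so it was not called. A sign test over 4 arrays cannot go below a two-sided p of 0.125. Read as labelled, the mean was -0.11.

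The levels of this Cdkn1a probe separated the groups. On a log2 scale after loess and between-channel normalization, the control pools were at 9.22, 9.22, 9.06 and 9.17 and the mutant pools at 9.50, 9.35, 9.51 and 9.43. Each mutant level was above each control level, and no other member probe had groups that did not overlap. Over the array, 2.52% of 25467 probes had such separate levels, 1.29% with the mutant higher and 1.23% with it lower. The separation uses the likely direction of arrays 3 and 4.

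Repeat spots gave the precision within an array. All 10 Cdkn1a spots were above 0 on each array, and the standard deviation between spots was 0.041 to 0.058, smaller than the 0.18 between arrays. Lowest and highest spots were 0.19 and 0.39 on array 1, 0.052 and 0.18 on array 2, 0.52 and 0.67 on array 3, and 0.22 and 0.35 on array 4.

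The other Cdkn1a probe kept, A_55_P1986282, was designed to transcript variant 2 and placed at chr17:29227986-29228045 on mm9. Its ratios of 0.065, -0.099, -0.31 and -0.012 had both signs, with a mean of -0.09 ± 0.16 (SD, n = 4, limma adjusted p = 0.7455), or 0.073 as labelled. Its level was low, though well above background in every channel. Its mean was -0.00869 with median-centred scanner signals and -0.222 with Agilent processed signals. Background treatment was not varied alone, so its part in this was not tested. In the deposited ratios array 3 held the lowest value for this probe and the highest for A_51_P363947, which is listed for both RefSeq variants of the gene. With loess on the scanner signals array 3 stayed the highest for A_51_P363947, at 0.453. The loess ratios of A_55_P1986282 were -0.058, 0.06, 0.01 and -0.091, so array 3 was not its lowest. The control levels were 7.20, 7.18, 6.90 and 7.10 and the mutant levels 7.14, 7.24, 6.91 and 7.01, and the groups overlapped. The difference between the 2 probes was not tested.

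Cdkn1b, whose product p27 restrains Cdk2 in cells that leave the cycle, had 2 probes whose means had opposite signs. The ratios of A_55_P2026562 were 0.052, 0.14, 0.085 and -0.13, with a mean of 0.037 ± 0.12 (SD, n = 4). Those of A_52_P673863 were -0.19, -0.21, -0.31 and 0.20, with a mean of -0.12 ± 0.22 (SD, n = 4). In the deposited ratios array 4 had for each probe the sign opposite to the other 3 arrays, and both 95% intervals held 0 (-0.15 to 0.23 and -0.37 to 0.12). With loess on the scanner signals this held for A_55_P2026562 only. The loess ratios of A_52_P673863 were -0.38, 0.02, -0.17 and -0.10, with array 2 alone above 0. The mean of the dimmer probe A_52_P673863 was -0.275 with Agilent processed signals.

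The Cdk4 and Cdk6 inhibitors had means on either side of 0. Cdkn2c had ratios of -0.16, -0.46, 0.19 and -0.19, with array 3 alone above 0, and a mean of -0.15 ± 0.26 (SD, n = 4, 95% interval -0.43 to 0.12). Its levels were low, and on arrays 3 and 4 both pools were at 7.28 and at 7.18. With loess on the scanner signals the Cdkn2c ratios were -0.30, -0.47, 0.004 and -0.001, so the signs on arrays 3 and 4 rest on the deposited values. Cdkn2d had ratios of -0.14, -0.002, 0.30 and 0.15, with a mean of 0.08 ± 0.19 (SD, n = 4, 95% interval -0.15 to 0.31). For Cdkn2d each array was below 0 when read as Cy5 over Cy3, with a mean of -0.149, beside -0.152 for Cdkn2c. If the labels hold, Cdkn2d was lower in the mutant on every array, so dye and genotype cannot be told apart here. With arrays 1 and 2 only the means were -0.307 for Cdkn2c and -0.069 for Cdkn2d. The limma adjusted p values were 0.6745 and 0.7932.

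The 3 D cyclins, the partners of Cdk4 and Cdk6 in early G1, had mean ratios below 0, and none was called. Ccnd2 had ratios of -0.14, -0.28, -0.43 and 0.13, so 3 arrays were below 0 and array 4 was above it. Its mean was -0.18 ± 0.24 (SD, n = 4, limma adjusted p = 0.6301), or -0.029 as labelled. The Ccnd2 control levels were 14.19, 14.16, 13.75 and 13.63, and the mutant levels were 14.05, 13.88, 13.32 and 13.76. All 4 levels on arrays 1 and 2 were above all 4 levels on arrays 3 and 4, and the groups overlapped.

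Ccnd3 was read by 2 probes that ordered the arrays alike. The ratios of A_51_P238448 were -0.15, -0.26, 0.009 and -0.051, with a mean of -0.11 ± 0.12 (SD, n = 4). The ratios of A_55_P2041075 were -0.18, -0.36, 0.12 and -0.036, with a mean of -0.11 ± 0.20 (SD, n = 4). Array 2 was the lowest and array 3 the highest for each, and the limma adjusted p values were 0.6659 and 0.7101. Ccnd1 had ratios of 0.19, -0.026, -0.20 and -0.20 and a mean of -0.057 ± 0.18 (SD, n = 4, limma adjusted p = 0.8514), and read as labelled its mean was 0.14.

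Rb1, the pocket protein that holds E2F factors inactive in G1, was lower in the mutant pools on every array. Its probe, printed 10 times at chr14:73595408-73595467 on mm9 (minus strand), had ratios of -0.28, -0.30, -0.34 and -0.092. They averaged -0.25 ± 0.11 (SD, n = 4), or 0.84 of the control level, with a 95% interval of -0.44 to -0.063, an unadjusted p of 0.0166 and a limma adjusted p of 0.5794. Arrays 1 to 3 lay close together and array 4 was nearest to 0. Read as labelled the mean was -0.036, because arrays 3 and 4 then ran the other way.

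All 10 Rb1 spots were below 0 on arrays 1 to 3, and 9 of 10 were below 0 on array 4, where the spots ran from -0.25 to 0.18. The spot standard deviation of 0.11 on array 4 was above the 0.029 to 0.059 of the other arrays. In levels, the control pools were at 9.46, 9.50, 9.32 and 9.55 and the mutant pools at 9.19, 9.23, 9.08 and 9.42. Within each array the mutant pool was the lower one, but the mutant level of array 4 was above the control level of array 3, so the groups overlapped.

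**Figure D2:**
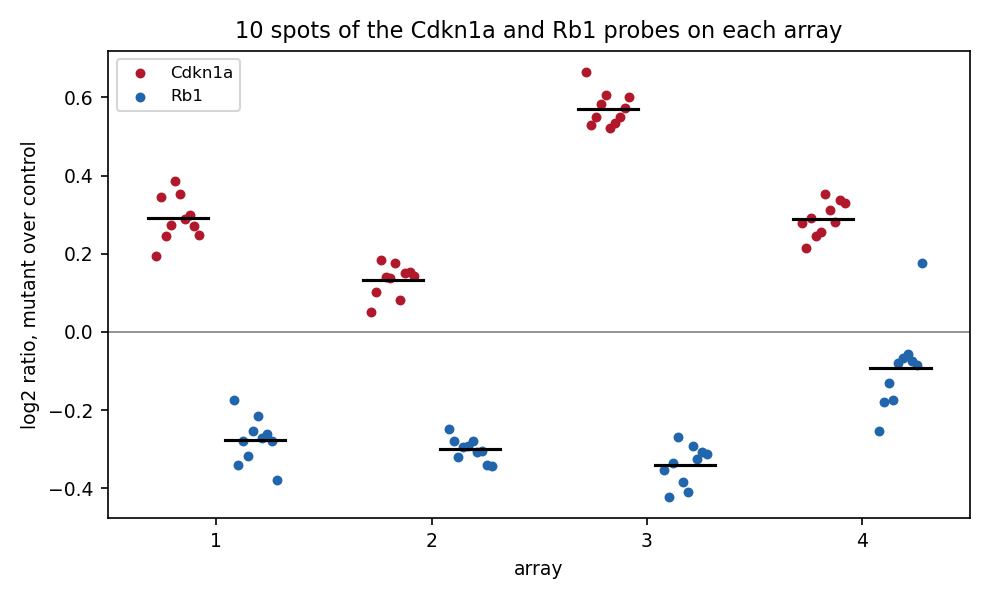
Log2 ratio of mutant over control for each of the 10 spots of the Cdkn1a probe (red) and the Rb1 probe (blue) on the 4 arrays, with the mean per array as a black line. All Cdkn1a spots lie above 0, and 1 Rb1 spot, on array 4, does.

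Rbl1, which encodes p107 and pairs with E2F4 and E2F5, gave different readings from its 2 probes. The probe for transcript variant 1, A_51_P286665, had ratios of -0.25, -0.089, -1.22 and -0.24. Array 3 set most of its mean of -0.45 ± 0.52 (SD, n = 4, 95% interval -0.91 to 0.011, limma adjusted p = 0.5794), and without that array the mean was -0.192. Read as labelled the mean was 0.28. On array 3 the control pool was at 10.82, within the control range of 10.79 to 11.17, and the mutant pool at 9.74, below the other mutant pools at 10.53 to 10.92.

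The probe for variant 2, A_55_P2024773, had ratios of -0.32, -0.35, 0.32 and 0.29, with a mean of -0.015 ± 0.37 (SD, n = 4, limma adjusted p = 0.9812). Read as Cy5 over Cy3 the 4 ratios were -0.32, -0.35, -0.32 and -0.29, so the probe was dimmer in Cy5 on each array by a like amount. If the labels hold, Cy5 is the mutant, with a mean of -0.321 (limma unadjusted p = 0.00182, adjusted p = 0.122). Dye and genotype cannot be told apart here. In the likely direction this probe had a mean close to 0, which changed sign with the normalization and with the array left out. With arrays 1 and 2 alone, on which labels and columns run the same way, it had the smallest adjusted p of any member under any setting tried, 0.0864, and was not called.

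**Figure D3:**
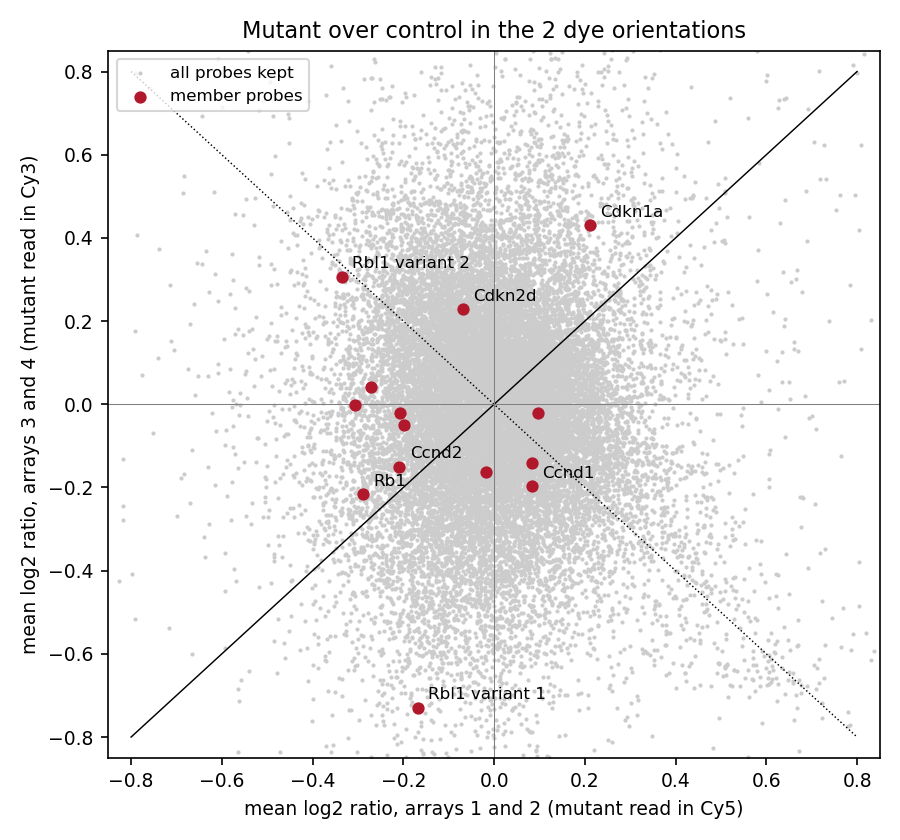
Mean log2 ratio of mutant over control on arrays 3 and 4 against that on arrays 1 and 2 for all kept probes (grey) and the member probes (red); the solid line marks equal means and the dotted line opposite means, and probes beyond the axis limits are not drawn. Cdkn1a (0.21 and 0.43) and Rb1 (-0.29 and -0.22) have 1 sign in both pairs of arrays, while the Rbl1 variant 2 probe (-0.34 and 0.31) lies on the dotted line.

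Trp53 had ratios near 0 on arrays 1 and 3. Its 4 ratios were 0.005, 0.16, -0.019 and -0.26, with a mean of -0.029 ± 0.18 (SD, n = 4, 95% interval -0.25 to 0.19, limma adjusted p = 0.9293). Its control levels were 8.63, 8.77, 9.0 and 9.63 and its mutant levels 8.73, 8.96, 9.03 and 9.35. Both pools of array 4 were above all pools of the other arrays, so the arrays differed more than the groups did. The sign of the mean was not stable over the settings tried, among which it ran from -0.0923 to the 0.112 found as labelled.

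**Figure D4:**
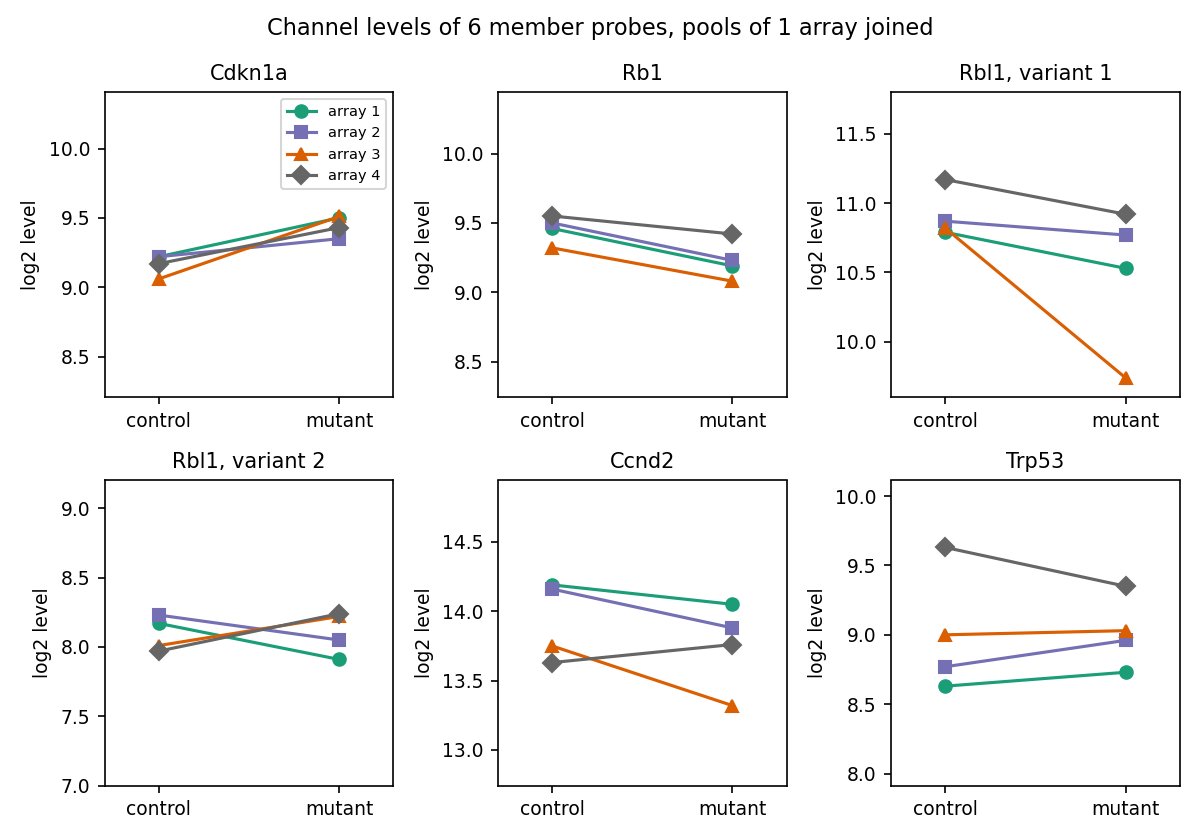
Log2 level of 6 member probes in the control and mutant channel, with the 2 pools of each array joined. Cdkn1a lines run up and Rb1 lines run down on all 4 arrays, the Rbl1 variant 2 lines run down on arrays 1 and 2 and up on arrays 3 and 4, and both Trp53 levels of array 4 (9.63 and 9.35) are above the rest. Levels compare within a panel only.

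The genes around the set were read from 7 lists, with the brightest probe kept of each gene. Across these lists 0 genes rose and 0 fell at an adjusted p below 0.05. Of the other CDK inhibitors, Cdkn1c (p57) had a mean ratio of -0.05 and Cdkn2b (p15) of -0.012, and Cdkn2a did not pass the background filter. The Cdkn1c ratios of 0.33, 0.13, 0.16 and -0.82 put array 4 alone below 0, and as labelled the means were 0.28 and -0.068.

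Of 16 kept genes for G1 and S phase CDKs, their cyclins and regulators, 4 had a mean above 0 and 12 below, with a median of -0.073, where 51.9% of all kept probes were above 0. Read as labelled, 11 were above and 5 below (median 0.05), and leaving out 1 array gave medians of -0.108 to -0.0527. Cdk2, the partner of E and A cyclins, had a mean of -0.12 ± 0.056 (SD, n = 4) and was below 0 on each array, the only gene of this list with 1 sign. Cdk7, the CDK-activating kinase, had a mean of -0.36 ± 0.58 (SD, n = 4), of which array 3 gave -1.18 and array 4 gave 0.14. As labelled these means were 0.00175 for Cdk2 and 0.16 for Cdk7. Cdk4 and Cdk6, the kinases the D cyclins activate, had means of 0.012 and -0.057, or -0.084 and 0.076 as labelled.

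Among 18 Rb partners, E2F factors and MuvB subunits, 7 means were above 0 and 11 below, with a median of -0.038, and as labelled 12 were above and 6 below (median 0.038). Leaving out 1 array gave medians of -0.0668 to -0.023. Rbl2, the remaining pocket protein gene, had ratios of -0.20, -0.37, -0.39 and -0.73. All lay below 0 in the likely direction, as for 10.2% of all kept probes, with a mean of -0.42 ± 0.22 (SD, n = 4), an unadjusted p of 0.005182 and a limma adjusted p of 0.5794. Read as labelled its ratios were -0.20, -0.37, 0.39 and 0.73, with a mean of 0.13, so its sign rests on the direction of arrays 3 and 4. E2f2, an activator E2F, had a mean of -0.21 ± 0.18 (SD, n = 4), or 0.028 as labelled.

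Of 19 replication genes under E2F control, 3 had a mean above 0 and 16 below, with a median of -0.049, and the means ran from -0.31 to 0.034. Read as labelled, 6 were above and 13 below (median -0.04). The median ran from -0.118 to -0.0153 when 1 array was left out and was 0.0606 with median-centred scanner signals. Mcm4, a subunit of the replicative helicase, was below 0 on each array, with a mean of -0.24 ± 0.20 (SD, n = 4, limma adjusted p = 0.5794), or 0.17 as labelled. Rrm2, a subunit of ribonucleotide reductase, had a mean of -0.14 ± 0.17 (SD, n = 4), or -0.11 as labelled. The medians of this list by array were -0.10, -0.095, -0.048 and 0.095, so array 4 was on the other side of 0.

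Of 12 regulators and relatives of p53, 6 means lay above 0 and 6 below (median -0.016), and as labelled 8 above and 4 below (median 0.0405). Leaving out 1 array gave medians of -0.0705 to 0.0218. The checkpoint kinase gene Chek2 had a mean of -0.27 ± 0.20 (SD, n = 4), with array 4 at 0.021, and the deacetylase gene Sirt1 a mean of -0.16 ± 0.096 (SD, n = 4). As labelled they were at -0.12 and 0.029. Of 23 kept p53 targets other than Cdkn1a, 11 lay above 0 and 12 below (median -0.0085), and the median ran from -0.0347 to -0.004 when 1 array was left out. On all 4 arrays 4 were above 0 and 6 below 0, or 43.5% of the list against 19.8% of all kept probes. Read as labelled, 3 were above and 2 below on all 4, and the median was -0.00775. Pmaip1 (Noxa), a pro-apoptotic BH3 protein gene, had a mean of 0.28 ± 0.15 (SD, n = 4), and Rrm2b, the p53-inducible ribonucleotide reductase subunit gene, of -0.30 ± 0.13 (SD, n = 4). Both had a limma adjusted p of 0.5794, and as labelled they were at -0.03 and 0.016.

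A further list held 18 genes taken as regulators of D cyclins or CDK inhibitors, a role not examined in these hearts. Among them, 11 had a mean above 0 and 7 below, with a median of 0.099. The median was 0.047 as labelled and 0.0538, 0.0452, 0.046 and 0.116 without arrays 1, 2, 3 and 4 in turn. Hey2, a Notch target of the compact ventricular wall, had ratios of 0, -0.21, -0.99 and -0.69 and a mean of -0.47 ± 0.45 (SD, n = 4). Tbx2, a repressor of the chamber programme, had ratios of 0.017, 0.26, 0.61 and 0.32 and a mean of 0.30 ± 0.24 (SD, n = 4). Both had a limma adjusted p of 0.5794, and both signs turned as labelled, to 0.37 for Hey2 and -0.16 for Tbx2.

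**Figure D5:**
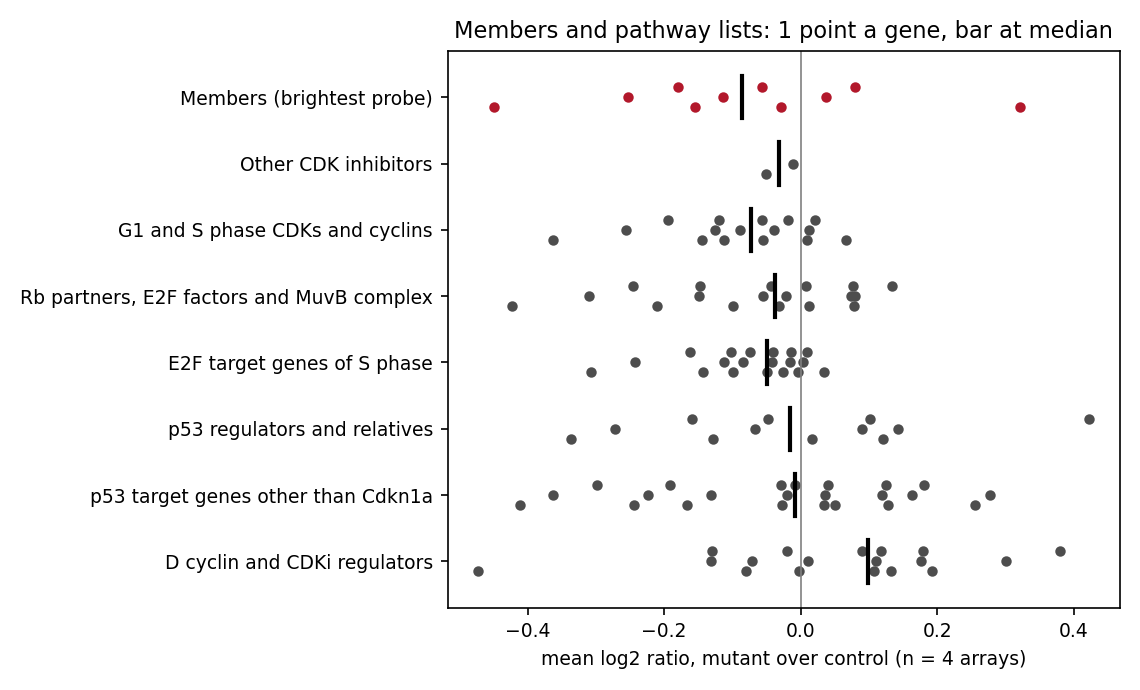
Mean log2 ratio of mutant over control (n = 4 arrays) for the 10 members, by their brightest probe, and for the genes of 7 pathway lists, 1 point per gene, with the median as a bar. List medians run from -0.073 to 0.099, and 0 points passed the adjusted test. Arrays 3 and 4 are taken in the direction of the deposited columns.

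The genes whose 4 ratios lay nearest to those of Cdkn1a were Car11, Gm9693 and Bcas3, at Euclidean distances of 0.083, 0.096 and 0.10 over the 4 arrays. They came from at most 19630 gene names, a count that includes names that only repeat a probe name, which were not compared. Car11, a carbonic anhydrase-related protein gene, had ratios of 0.23, 0.14, 0.52 and 0.27, and turning arrays 3 and 4 leaves the distances as they are. Like Cdkn1a, each of these genes was highest on array 3 and lowest on array 2. Likeness over 4 values is a description.

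Marker lists of cell types that the pools could hold were read beside these ratios, and 0 of their genes were called. In the likely direction all 15 erythroid markers had a mean below 0 (median -0.30), with array medians of -0.15, -0.64, -0.37 and -0.20, and their summed linear level was 337000 to 617700 in mutant pools against 544400 to 695800 in control pools. Read as labelled, 6 erythroid markers were above 0 and 9 below (median -0.033), with Hbb-bh1 at 0.37 and Hbb-y at 0.27. Heart muscle markers had 5 means on each side of 0 (median 0.017), with array medians of 0.16, 0.34, -0.14 and -0.40, and as labelled all 10 were above 0 (median 0.22).

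Of 10 proliferation markers, 2 had a mean above 0 and 8 below (median -0.065), and as labelled 5 lay on each side (median -0.02). Their summed level was 148000 to 156600 in mutant against 152200 to 169300 in control pools. The 10 endocardial markers had 6 means above 0 and 4 below, from -0.36 to 0.67 (median 0.17). As labelled 5 lay on each side (median -0.0079). The 7 epicardial markers had 1 mean above 0 and 6 below (median -0.17), and as labelled 3 above and 4 below (median -0.073). Of 10 endoderm and liver markers 7 were kept, all above 0 (median 0.28), but as labelled 5 were above and 2 below (median 0.064), with Krt18 at -0.27. Of the neural, pluripotent and skeletal muscle lists, 3 of 8, 5 of 8 and 2 of 6 markers were kept, with medians of -0.022, 0.16 and 0.52, or -0.33, -0.021 and -0.17 as labelled. The part of these cell types in the ratios of Cdkn1a, Rb1, Rbl1 and the other members was not tested.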

How the data were processed

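RNA from 4 mutant and 4 control pools was read on 4 two-colour Agilent arrays. The authors deposited log2 ratios per spot, with the normalization not named in any label or header; the deposited scanner tables, 1 per array, hold spot intensity and log10 ratio and came from Agilent Feature Extraction 11.5.1.1, per the file headers, while the submitters' processing notes name 8.5.1.1. Probe positions are on mm9, per the file headers, and 13 of 15 member probes matched a RefSeq transcript of the same symbol. Control spots were left out and spots of a probe averaged. Probes were kept if well above background on all 4 arrays in either channel, tested against 0 with limma 3.58.1 (R 4.3.3) and adjusted by Benjamini-Hochberg over all kept probes, threshold 0.05. Levels came from normexp (offset 50), loess and Aquantile. Of each array, 66.6% to 71.2% of probes were well above background and 0 spots were saturated; the number of arrays limits the precision. The fit was tested on simulated data.

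The members and lists were chosen with earlier results of these data known. Named were every member probe, Hdac3, the 2 genes of smallest unadjusted p per list, and the 3 genes nearest to the member probe of smallest p; Rbl2 falls under this rule, and Cdkn1c, Cdkn2a, Cdkn2b, Cdk4, Cdk6, Hbb-bh1, Hbb-y, Krt18 and the pluripotency markers were named, after their values were seen. Alternatives were another normalization, the labelled direction, a dye term, other filters, array weights, no pairing by array, and leaving out each array. No probe sequence is printed.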

Additional observations from a re-analysis of the deposited data

Results flagged for a closer look

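The Rbl1 variant 1 probe A_51_P286665 had a log2 ratio of -1.219 on array 3, far from the -0.248, -0.089 and -0.239 of the other arrays by Dixon's criterion for 4 values at the 95% level. Ratios of 15 member probes and 30 sets of channel levels were examined in this way, and chance alone marks about 1 in 20 sets. Array 3 also had the widest ratios over the array. The part of that array's spread in this value was not tested.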

How the results depend on the processing

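With 15 alternatives, 24 of 210 member values changed sign and 0 member probes were called. Sign was kept under every alternative by 5 of 14 kept probes (both Cdkn1b probes, Cdkn2c, Ccnd2 and Rb1). The dye term and the other filters could not change a member mean, and centring the deposited columns hardly moved it. Means without the replicate block repeat those with loess. These settings are therefore not separate checks of sign, and they are counted in the 210. Read as labelled, Cy5 over Cy3, means were -0.11 for Cdkn1a A_51_P363947, 0.073 for Cdkn1a A_55_P1986282, -0.149 for Cdkn2d, 0.14 for Ccnd1, 0.28 for Rbl1 A_51_P286665 and 0.112 for Trp53. With arrays 1 and 2 only they were -0.069 for Cdkn2d, 0.083 for Ccnd1 and 0.0835 for Trp53, and with array weights -0.0489, 0.0706 and 0.0368. With scanner signals centred on the median they were 0.0492 for Ccnd1, 0.00397 and 0.0414 for the Ccnd3 probes, 0.0315 for Rbl1 A_55_P2024773 and 0.0382 for Trp53, where 65.9% of all probes were above 0 against 51.9%. With loess, and likewise without the replicate block, Rbl1 A_55_P2024773 was at 0.00666 and Trp53 at 0.00817. When 1 array was left out, Rbl1 A_55_P2024773 ran from -0.128 to 0.0963 (0.0883 without array 1) and Trp53 from -0.0923 to 0.0493.

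Probes called over the array numbered 12 as labelled (12 higher, 0 lower), 19 with arrays 1 and 2 only (17 higher, 2 lower), 5 with array weights (3 higher, 2 lower), and 0 to 4 when 1 array was left out, the 4 without array 1. Member probes with 1 sign numbered 12 with arrays 1 and 2 only. Leaving out 1 array gave 3 to 6: 5 without array 1, 6 without array 3 and 6 without array 4. Fewer arrays reach 1 sign more easily, and the share of all kept probes was not computed for these counts. List medians moved to 0.0328 (median centring) and 0.05 (as labelled) for CDKs and cyclins, to 0.0476, 0.0376 and 0.0262 (arrays 1 and 2) for Rb partners, to 0.0606 (median centring) for E2F targets, and to 0.0524 and 0.0405 for p53 regulators, which ran from -0.0705 (without array 1) to 0.0218 when 1 array was left out. The cause of these shifts was not tested.

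Without pairing by array, 0 probes were called (smallest adjusted p 0.16). Deviations of the 2 pools of an array correlated at 0.409, -0.0139, 0.343 and 0.525. On array 2 this was below the highest correlation with a pool of another array, 0.143. Both pools of an array were read on it together, so the design sets the pairing, and these correlations do not test it. The members kept were above background in all 8 channels. The dim probes Cdkn1a A_55_P1986282, Cdkn1b A_52_P673863 and Cdkn2c A_55_P2074796 moved to -0.222, -0.275 and -0.226 with Agilent processed signals, and the cause was not tested.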
